A study of Homo sapiens with 16 samples.

Results

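Replication-dependent histone genes are the clustered genes that supply the bulk of histone protein when DNA is copied. Members were the protein-coding rows of the count files with histone cluster symbols, in the older form (HIST1 to HIST4) or the newer one (H1-1 to H1-6, H2AC, H2BC, H3C and H4C numbers). There were 70 members among 67938 genes: 6 genes of linker histone H1, 17 of H2A, 18 of H2B, 14 of H3 and 15 of H4. Of these, 55 lie on chromosome 6, 14 on chromosome 1 and 1 on chromosome 12. Pseudogenes were left out, and so was 1 coding gene with a matching symbol outside the clusters, H2BC12L.

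Cells of SNU-449, a hepatocellular carcinoma line, and HepG2, a liver cancer line with hepatocyte traits, had been transfected for 48 h with siPANAD-1 and siPANAD-2 together (siPANAD) or with NC, the control. The siRNAs are named for PANAD, also called C7orf25. RNA of the cytoplasmic and of the nuclear extract was sequenced separately, with 2 libraries for each line, fraction and siRNA, described by the submitters as biological duplicates, so that 16 libraries fell into 8 groups. The series title links PANAD to the export receptor NXF1, to nuclear export of CDK6 mRNA and to entry into S phase, and the comparisons below ask how histone transcripts stood in each fraction with and without siPANAD.

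H2A, H2B, H3 and H4 form the protein core around which DNA is wound, and H1 binds the DNA between cores. Most mRNAs of these genes carry no poly(A) tail: they end just past a conserved stem-loop, which the stem-loop binding protein SLBP holds through processing, export, translation and decay, and their level peaks in S phase. Many of these genes can also give longer, polyadenylated transcripts that run past the stem-loop, for example in cells that leave the cycle. Replication-independent (replacement) histones such as H3-3A are made from ordinary polyadenylated mRNAs.

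The stem-loop was searched for by its consensus behind the stop codon of the annotated transcripts (GENCODE release 29, GRCh38). Of the 66 members with a transcript there, 34 had a 3′UTR of at least 16 bases, and 30 held a match to the 16-base stem-loop. In 23 of these 30 the annotated transcript ran on for more than 100 bases past it, and in 7 for 100 bases or fewer. Another 32 members, among them H2BC12 and H1-2, are annotated as coding sequence with no 3′UTR. The sequences below belong to members on which the results turn, with the stem-loop in capitals and 5 bases on either side; they show that those of H2A, H2B and H3 begin with GGCTC, and those of H4 with GGCCC.
H2AC25, chr1:228457369-228457384, minus strand: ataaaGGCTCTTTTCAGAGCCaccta
H2BC26, chr1:228458538-228458553, plus strand: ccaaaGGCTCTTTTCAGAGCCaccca
H2BC21, chr1:149886188-149886203, minus strand: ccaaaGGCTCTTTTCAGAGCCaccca
H2AC6, chr6:26124669-26124684, plus strand: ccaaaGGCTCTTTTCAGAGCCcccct
H3C10, chr6:27810516-27810531, plus strand: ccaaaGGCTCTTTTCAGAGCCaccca
H3C6, chr6:26225596-26225611, plus strand: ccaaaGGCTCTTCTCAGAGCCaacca
H4C8, chr6:26285131-26285146, minus strand: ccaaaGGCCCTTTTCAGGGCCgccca
H4C9, chr6:27139654-27139669, plus strand: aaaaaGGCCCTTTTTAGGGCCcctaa
All 8 H4 matches began with GGCCC. Past the stem-loop the annotation went on for 390 bases in H2AC25, 1729 in H2BC21 and 1862 in H3C6, the only member with the loop shown for it. The total count of a member over the 16 libraries had a median of 212 (range 29 to 8498) for members with the long form, 232 (13 to 774) for those annotated to end near the stem-loop, and 94 (0 to 3188) for those with no annotated 3′UTR.

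Promoters of 65 members, 250 bases before to 50 after the start site (RefSeq, GRCh38.p14), were searched on both strands for the TATA box (TATAAA), for the CCAAT box (the letters of its name) and for the octamer ATTTGCAT, the binding motif of the factor POU2F1. TATAAA was in 43 of the 65 (66.2%), against 12% of all 27305 promoters of this length. CCAAT was in 55 (84.6%, against 35.7%), among them all matched H1, H2A, H2B and H3 promoters. The octamer was in 26 (40%, against 1.8%), in 14 of 18 H2B and 11 of 16 H2A promoters, and in none of H1 or H4. The only H3 gene with it was H3C4, whose window in the table (the first listed there for the gene) is the same as that of H2AC7. The promoters of 3 members described at length further on, chosen after their values were seen, are given here with these 3 motifs and their reverse complements in capitals; in H2BC12, TATAAA and its reverse complement overlap at 1 place.
H2BC12, chr6:27146809-27147108, minus strand: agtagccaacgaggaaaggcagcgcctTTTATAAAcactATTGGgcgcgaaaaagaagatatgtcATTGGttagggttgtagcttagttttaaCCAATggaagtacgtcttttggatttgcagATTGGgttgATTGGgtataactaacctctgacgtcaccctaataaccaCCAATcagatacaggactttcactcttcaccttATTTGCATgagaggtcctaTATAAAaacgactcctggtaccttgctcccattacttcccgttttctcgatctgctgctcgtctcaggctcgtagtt
H2BC21, chr1:149886633-149886932, minus strand: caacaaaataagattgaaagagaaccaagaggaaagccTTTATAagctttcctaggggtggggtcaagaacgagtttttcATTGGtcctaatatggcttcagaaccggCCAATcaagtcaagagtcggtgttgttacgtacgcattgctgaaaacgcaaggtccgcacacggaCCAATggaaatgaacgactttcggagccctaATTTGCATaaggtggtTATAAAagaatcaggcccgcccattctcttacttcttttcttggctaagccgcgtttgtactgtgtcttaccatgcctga
H2AC25, chr1:228457824-228458123, minus strand: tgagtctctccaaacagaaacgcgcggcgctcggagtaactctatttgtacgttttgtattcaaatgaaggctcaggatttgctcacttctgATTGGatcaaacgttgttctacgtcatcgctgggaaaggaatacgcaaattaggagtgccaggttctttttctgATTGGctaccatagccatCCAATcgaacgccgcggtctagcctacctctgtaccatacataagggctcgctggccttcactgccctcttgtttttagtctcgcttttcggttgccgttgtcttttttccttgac
The H2AC25 window has CCAAT in 3 places and neither of the other motifs, while the H2BC12 and H2BC21 windows hold all of them. H2A and H2B genes often lie head to head: among the matched promoters 11 such pairs start between 194 and 248 bases apart and so share most of their promoter window. H2AC25 and H2BC26 are such a pair, with starts 230 bases apart.

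Libraries held 16238235 to 30321908 counts. HepG2 cytoplasm NC replicate 2 was the deepest, the next having 19498081. Most histone genes were near the limit of detection: 36 members in SNU-449 and 50 in HepG2 had fewer than 100 counts over the 8 libraries of the line, and 4 (H2AC1, H2BC1, H4C6 and H4C7) had 0 in all 16. A count of 0 allows up to 3 counts, 0.0989 to 0.185 CPM (the count as a share of all counts of the library, on the usual CPM scale), which covers counting error only. Of 12 RNAs known to lack a poly(A) tail, only RN7SL1 passed the filter on low counts, and the 12 summed to 15.4 to 49.2 CPM in SNU-449 and 2.4 to 5.5 CPM in HepG2. The labels give no poly(A) selection or rRNA depletion step, so whether the histone counts are of tailed or untailed transcripts was not tested. C7orf25 had at most 4 counts in siPANAD and 7 in NC libraries, too few to check the knockdown from these data. The 8 hepatocyte markers, among them APOB and APOA1, summed to 23330 to 31270 CPM in HepG2 and 19.8 to 277 CPM in SNU-449. A list of 5 mesenchymal genes summed to 1393 to 3810 CPM in SNU-449, with VIM at 1080 to 1750 CPM, and to 1126 to 7349 CPM in HepG2, where FN1, which hepatocytes also make, held 1111 to 7314 CPM and VIM at most 0.244 CPM. A list of 5 immune and blood genes summed to at most 0.175 CPM in SNU-449 and to 89.5 to 507.8 CPM in HepG2, of which LYZ alone held 81.3 to 504.9 CPM.

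Summed over all 70 members, histone transcripts made up a larger share of the counts with siPANAD than with NC in each line and fraction. In SNU-449 cytoplasm they came to 263.1 and 262.6 CPM in siPANAD libraries, against 130.3 and 122.0 CPM in NC libraries. In SNU-449 nuclei they came to 124.7 and 136.2 CPM with siPANAD, against 71.8 and 73.5 CPM with NC. The same sum in HepG2 cytoplasm was 146.5 and 146.1 CPM with siPANAD, against 66.9 and 69.3 CPM with NC, and in HepG2 nuclei 76.1 and 79.9 CPM, against 47.4 and 50.7 CPM. The siPANAD libraries were above the NC libraries in every one of these 4 pairs of groups, with no overlap; a sum over chosen members gets no test. In these bulk extracts, more transcript per cell and more cells with the transcript cannot be told apart.

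**Figure D1:**
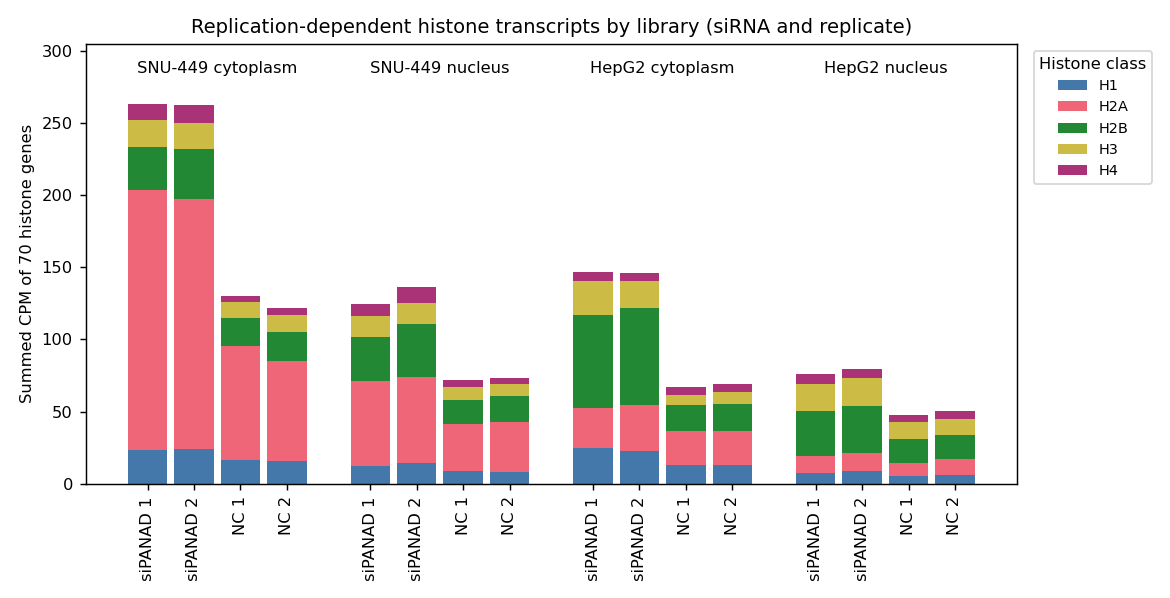
Summed CPM of the 70 histone genes in each of the 16 libraries, stacked by histone class, with siPANAD libraries left of NC libraries. The siPANAD bars are higher in each pair of groups; the H2A part is the largest in SNU-449 and, with siPANAD, the H2B part in HepG2.

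Single genes carried a large part of the sum. In SNU-449 cytoplasm H2AC25 alone held 50.4% and 49.1% of the histone counts with siPANAD, against 35.5% and 32.3% with NC. Without it the sum was 130.5 and 133.7 CPM with siPANAD, against 84.0 and 82.5 CPM with NC, so the groups remained apart. In HepG2 cytoplasm H2BC12 held 29.9% and 30.9% with siPANAD, against 9.03% and 6.99% with NC, and without it the sum was 102.7 and 100.9 CPM, against 60.8 and 64.5 CPM. By class, H2A in SNU-449 cytoplasm summed to 180.1 and 174.0 CPM with siPANAD, against 79.0 and 69.8 CPM with NC. H2B in HepG2 cytoplasm summed to 64.3 and 67.4 CPM with siPANAD, against 18.1 and 18.5 CPM with NC. In HepG2 cytoplasm H4 summed to 5.68 and 5.38 CPM with siPANAD, against 5.47 and 5.80 CPM with NC, so that the groups overlapped, and in SNU-449 cytoplasm to 10.6 and 12.2 CPM, against 4.63 and 4.98 CPM, with no overlap.

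Genes were tested with edgeR's quasi-likelihood test (two-sided) on the counts of all genes of a line, and were called at a Benjamini-Hochberg adjusted p under 0.05 over all genes tested. The filter on low counts left 47 members in SNU-449 and 25 in HepG2, so the counts that follow are over those and not over all members. Of these, 38 in SNU-449 and 24 in HepG2 had at least 10 counts in 2 or more NC libraries, and the others passed with less in NC. In SNU-449 cytoplasm 20 of 47 members rose with siPANAD, none fell and 27 did not pass, where 39.7% of all 17895 genes were called, 19.6% higher and 20.1% lower; the members' share was 42.6%, with a median log2 fold change of 0.70 against 0.04 over all genes. This count rested on both replicates of each group: it was 11 without siPANAD replicate 1 and 11 without siPANAD replicate 2, 13 and 14 without NC replicates 1 and 2, and 7 with DESeq2. In SNU-449 nuclei 14 of 47 rose (29.8%), none fell and 33 did not pass, where 46% of all genes were called, 22.1% higher and 23.9% lower; the median was 0.60 against -0.01 over all genes. Without NC replicate 1 this count was 9. Over the 38 members with at least 10 counts in 2 or more NC libraries, a restriction chosen after seeing the data, 17 rose in the cytoplasm (44.7%, median 0.63) and 13 in the nucleus (34.2%, median 0.58). The calls left out were H2AC18, H4C12 and H4C16 in the cytoplasm and H4C16 in the nucleus.

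In HepG2 cytoplasm 8 of 25 members rose with siPANAD (32%), 1 fell and 16 did not pass, where 47.9% of all 17499 genes were called, 23.7% higher and 24.2% lower, and the median log2 fold change was 0.49 against 0.00 over all genes. Leaving out the deep NC replicate 2 gave 10 higher and 1 lower. In HepG2 nuclei 3 of 25 rose (12%), none fell and 22 did not pass, where 45.6% of all genes were called, 22% higher and 23.6% lower, so the members' share was below the share over all genes; the median was 0.22 against -0.03. Over the 24 members with that minimum in NC, the same 8 rose and 1 fell in the cytoplasm (median 0.51), and the same 3 rose in the nucleus (median 0.27).

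Other RNAs that mark the fractions moved with siPANAD in the same nuclear libraries. MALAT1 and NEAT1, which stay in the nucleus, summed to 3160 and 3275 CPM in siPANAD nuclei of SNU-449, against 955.4 and 972.0 CPM in NC nuclei, and to 3665 and 3245 CPM in siPANAD nuclei of HepG2, against 1564 and 1714 CPM in NC nuclei. NEAT1 carried most of this, with log2 fold changes of 2.18 in SNU-449 and 1.13 in HepG2 (both called by edgeR), while MALAT1 was at 0.53 (called) and -0.17 (not called). In the cytoplasm the pair summed to 15.25 and 13.3 CPM with siPANAD, against 9.75 and 7.03 CPM with NC, in SNU-449, and to 65.2 and 59.4 CPM, against 67.5 and 95.5 CPM, in HepG2. ACTB, an abundant cytoplasmic mRNA, fell in the nuclei of both lines (-0.93 in SNU-449 and -0.77 in HepG2), and GAPDH was not called there (-0.06 and -0.29). Their part in the nuclear histone results was not tested.

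In all, 27 of the 48 members tested in a line were called in at least 1 of the 4 comparisons. Of these, 9 were called in both SNU-449 fractions, 3 in both HepG2 fractions and 4 in the cytoplasm of both lines. In the nucleus of both lines 3 were called, and 1, H2BC12, in all 4. Single comparisons called 39.7% to 47.9% of all genes. The share of all genes called in any or in several comparisons was not counted, so these numbers cannot be set against it.

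**Figure D2:**
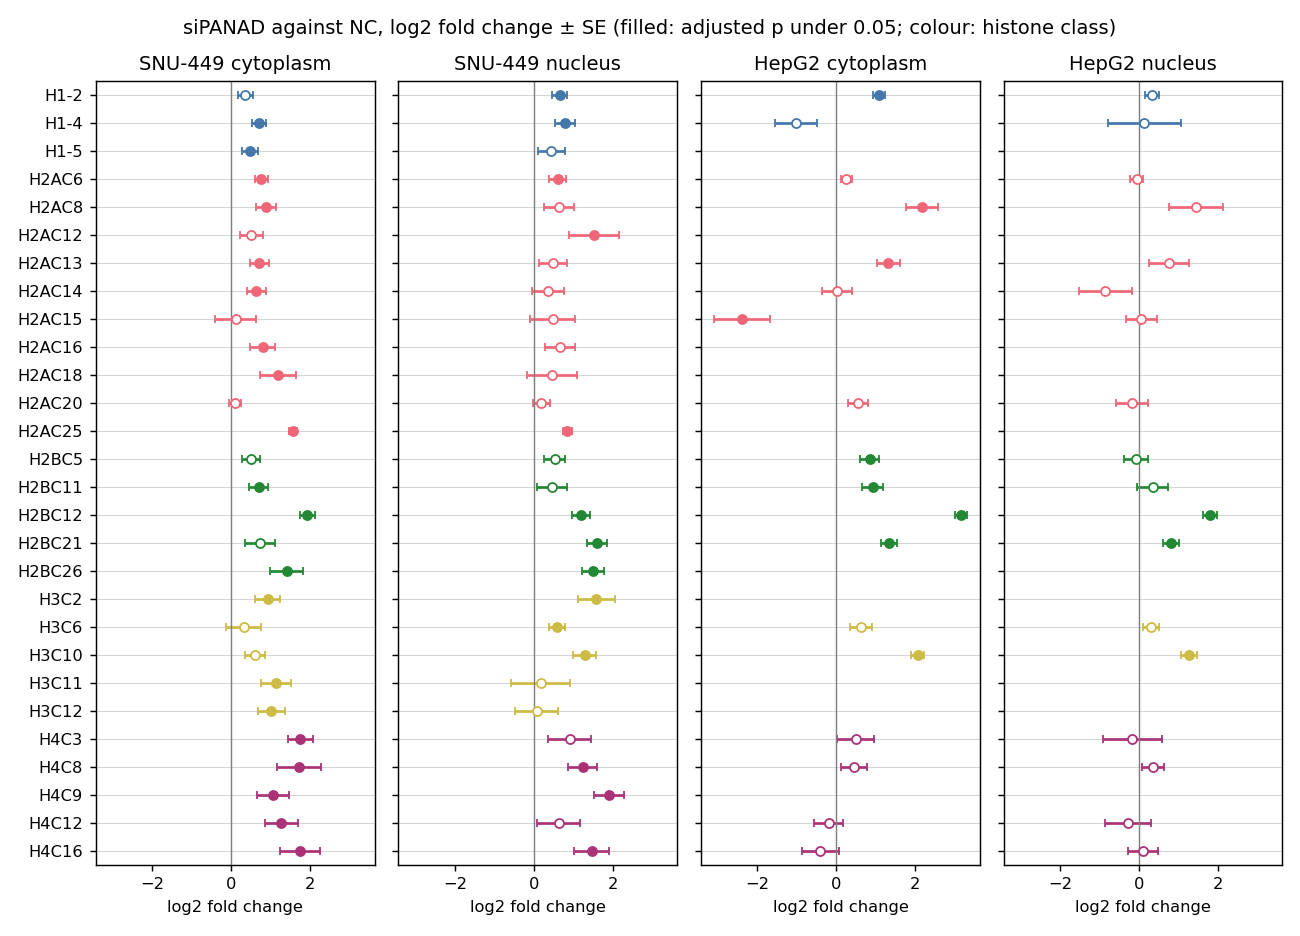
Log2 fold change (siPANAD over NC) ± SE of the 28 named members in each line and fraction, coloured by histone class; filled points passed the adjusted p of 0.05, and a missing point means the gene was not tested in that line. H2BC12 is filled in all 4 panels, and H2AC15 in HepG2 cytoplasm is the only filled point left of 0.

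Levels of single genes are given as CPM after TMM scaling within a line (TMM CPM). Since neither the counting program nor its annotation is known, levels are compared within a gene and not between genes. Among the linker histones, H1-2 stood at 32.7 and 30.7 TMM CPM in siPANAD cytoplasm of HepG2, against 15.3 and 14.8 TMM CPM in NC cytoplasm. The siPANAD libraries were about double the NC libraries with no overlap, a log2 fold change of 1.08 ± 0.15 (SE; adjusted p = 1.6e-06, edgeR). In HepG2 nuclei the difference did not pass, with 4.95 and 5.93 TMM CPM with siPANAD, against 3.89 and 4.70 TMM CPM with NC (log2 fold change 0.34 ± 0.18, adjusted p = 0.133, edgeR). In SNU-449 H1-2 rose in the nucleus (5.51 and 6.87 TMM CPM with siPANAD, against 4.56 and 3.28 TMM CPM with NC; log2 fold change 0.66 ± 0.18), while the cytoplasmic log2 fold change was 0.36 ± 0.18 (adjusted p = 0.115, edgeR). The nuclear call was lost without siPANAD replicate 2 or NC replicate 2. H1-4 rose in both SNU-449 fractions, by 0.70 ± 0.18 in the cytoplasm and 0.80 ± 0.26 in the nucleus on the log2 scale, whereas in HepG2 it was near the detection limit, with 6 and 4 counts in siPANAD cytoplasm against 12 and 19 in NC cytoplasm. H1-5 was called in SNU-449 cytoplasm (log2 fold change 0.48 ± 0.20, adjusted p = 0.047, edgeR), a call lost in 8 of 13 other settings, among them those without NC replicate 1 or either siPANAD replicate. The nuclear call of H1-4 was lost without NC replicate 1 or siPANAD replicate 2.

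H2AC25 (HIST3H2A), 1 of 5 H2A members on chromosome 1, had the highest histone count of SNU-449 and was all but absent from HepG2. It held 2295 and 2394 counts in siPANAD cytoplasm of SNU-449, against 850 and 769 in NC cytoplasm, and 694 and 718 in siPANAD nuclei, against 359 and 417 in NC nuclei. The groups did not overlap in either fraction, and the log2 fold changes were 1.58 ± 0.10 in the cytoplasm (adjusted p = 2.19e-15) and 0.86 ± 0.11 in the nucleus (adjusted p = 5.5e-08, both edgeR). In HepG2 a single count was seen in each of 2 libraries and none in the other 6. H2AC25 has no exonic overlap with another gene and shares no 100-base stretch with another histone transcript in the annotation searched (GENCODE release 29). Its head-to-head partner H2BC26 rose too, at a lower count: 53 and 59 counts in siPANAD nuclei of SNU-449, against 23 and 16 in NC nuclei, a log2 fold change of 1.51 ± 0.29 (adjusted p = 5.7e-05, edgeR). In the cytoplasm H2BC26 had 24 and 20 counts with siPANAD, against 7 and 10 with NC (log2 fold change 1.41 ± 0.41), a call lost without NC replicate 1 or siPANAD replicate 1. HepG2 had no H2BC26 count in any library.

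H2AC6 stood at 17.2 and 14.9 TMM CPM in siPANAD cytoplasm of SNU-449, against 10.2 and 8.65 TMM CPM in NC cytoplasm (log2 fold change 0.77 ± 0.16, adjusted p = 0.00015, edgeR), and the groups did not overlap. In SNU-449 nuclei it rose by 0.61 ± 0.21 on the log2 scale, a call lost without NC replicate 1 or either siPANAD replicate. In HepG2, where H2AC6 was the most counted histone gene of the NC cytoplasm, it stood at 22.9 and 24.3 TMM CPM with siPANAD, against 19.9 and 19.6 TMM CPM with NC, which did not pass (log2 fold change 0.26 ± 0.14, adjusted p = 0.148, edgeR). H2AC8 rose in the cytoplasm of both lines, by 0.89 ± 0.26 in SNU-449 and 2.17 ± 0.40 in HepG2 on the log2 scale, the value in HepG2 from 38 and 35 counts with siPANAD against 14 and 10 with NC. H2AC13 also rose in both, by 0.72 ± 0.24 and 1.32 ± 0.29. Of the annotated 100-base stretches, 57.7% in H2AC13 and 80.9% in H2AC14 also occur in another histone transcript. How such reads were counted is not known, so the reads of both genes are uncertain. H2AC18 had no entry in the annotation searched, so overlap and shared sequence were not checked for it. H2AC14, H2AC16 and H2AC18 were called in SNU-449 cytoplasm, with log2 fold changes of 0.64 to 1.19, and H2AC12 in its nucleus with 1.53 ± 0.64; each of these calls was lost with DESeq2. All 4 were also lost without siPANAD replicate 1 of their fraction, and the call of H2AC13 in SNU-449 was lost without NC replicate 2 or either siPANAD replicate. DESeq2 lost the SNU-449 calls of H2AC8 and H2AC13 as well. H2AC20, among the 10 members with the highest mean level, had no call: 15.6 and 15.7 TMM CPM in siPANAD cytoplasm of SNU-449, against 14.96 and 14.4 TMM CPM in NC cytoplasm. H2AC15 was the only member called lower, in HepG2 cytoplasm, with 1 and 2 counts with siPANAD against 10 and 15 with NC (log2 fold change -2.39 ± 0.72, adjusted p = 0.00744, edgeR). All of its annotated exon lies opposite H2BC15, and as the strand setting of the counting is not given in the sources used here, their reads may not have been told apart. That call was lost without siPANAD replicate 1.

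H2B held the member with the largest log2 fold change of the 4 comparisons. H2BC12 (HIST1H2BK, chr6:27146418-27146798) stood at 59.2 and 61.2 TMM CPM in siPANAD cytoplasm of HepG2, against 7.74 and 5.94 TMM CPM in NC cytoplasm. In HepG2 nuclei it stood at 9.79 and 10.96 TMM CPM with siPANAD, against 2.86 and 3.06 TMM CPM with NC. The siPANAD libraries were several times the NC libraries in both fractions, with log2 fold changes of 3.16 ± 0.16 (adjusted p = 4.57e-14) and 1.81 ± 0.18 (adjusted p = 7.9e-09, both edgeR). In SNU-449 H2BC12 stood at 13.3 and 17.6 TMM CPM in siPANAD cytoplasm, against 3.52 and 4.54 TMM CPM in NC cytoplasm, and at 3.85 and 4.32 TMM CPM in siPANAD nuclei, against 1.55 and 2.00 TMM CPM in NC nuclei. These groups were apart as well (log2 fold change 1.94 ± 0.19 in the cytoplasm and 1.20 ± 0.22 in the nucleus). Of its annotated 100-base stretches, 28.4% also occur in another histone transcript, and how such reads were counted is not known.

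H2BC21 (HIST2H2BE), a chromosome 1 gene with a long annotated 3′UTR, rose in 3 of the 4 comparisons. In SNU-449 nuclei it stood at 6.92 and 11.4 TMM CPM with siPANAD, against 2.15 and 3.87 TMM CPM with NC, a log2 fold change of 1.60 ± 0.25 (adjusted p = 4.01e-05, edgeR). In HepG2 it rose by 1.34 ± 0.20 in the cytoplasm and 0.81 ± 0.20 in the nucleus on the log2 scale, while in SNU-449 cytoplasm the log2 fold change of 0.73 ± 0.38 did not pass. Its head-to-head partner is H2AC20, which had log2 fold changes between -0.17 and 0.56 in the 4 comparisons, none of them called. H2BC5 rose in HepG2 cytoplasm by 0.85 ± 0.24, and H2BC11 in the cytoplasm of HepG2 by 0.93 ± 0.26 and of SNU-449 by 0.70 ± 0.25. These calls were lost without siPANAD replicate 2 for H2BC5, without siPANAD replicate 1 for H2BC11 in HepG2, and without NC replicate 1 or siPANAD replicate 2 for H2BC11 in SNU-449. DESeq2 lost the call of H2BC11 in both lines. Of the 13 H2B genes tested in SNU-449, 3 were called in each fraction, and the lowest value in the cytoplasm was that of H2BC9, -0.47 ± 0.22, which did not pass.

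**Figure D3:**
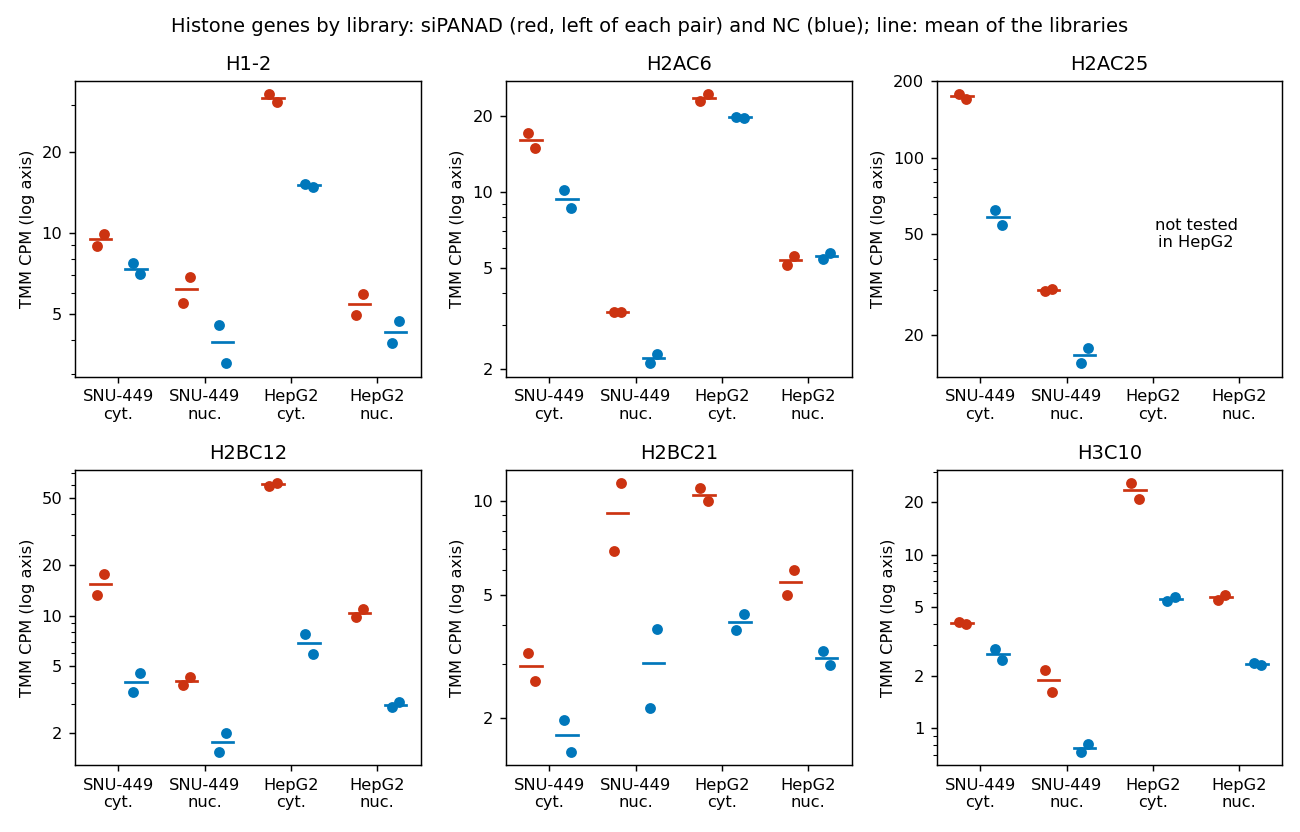
TMM CPM (log axis, scaled within each line) of 6 histone genes in each library, siPANAD in red at the left of each pair and NC in blue, with the mean as a line. The points of siPANAD and NC are apart for H2BC12 and H3C10 in all 4 pairs, whereas for H2AC6 they overlap in HepG2 nuclei; H2AC25 was not tested in HepG2.

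Among H3 genes, H3C10 (HIST1H3H) stood at 25.7 and 21.01 TMM CPM in siPANAD cytoplasm of HepG2, against 5.42 and 5.74 TMM CPM in NC cytoplasm. The log2 fold change was 2.06 ± 0.18 (adjusted p = 5.46e-10, edgeR), and in HepG2 nuclei it was 1.28 ± 0.20. In SNU-449 it rose in the nucleus, 2.18 and 1.61 TMM CPM with siPANAD against 0.732 and 0.809 TMM CPM with NC (log2 fold change 1.29 ± 0.30), and did not pass in the cytoplasm (0.60 ± 0.25, adjusted p = 0.0515, edgeR). H3C2 rose in both SNU-449 fractions, by 0.93 ± 0.32 and 1.59 ± 0.46. H3C11 and H3C12 were called in SNU-449 cytoplasm with log2 fold changes of 1.15 ± 0.38 and 1.02 ± 0.35. H3C6 was called in SNU-449 nuclei with 0.60 ± 0.20, from 100 and 118 counts with siPANAD against 79 and 64 with NC. Exons of H3C12 overlap those of H2AC17 on the same strand over 44.6% of its length, and its reads are uncertain for that reason. H3C2 had no entry in the annotation searched, so overlap and shared sequence were not checked for it. The cytoplasmic calls of H3C2, H3C11 and H3C12 and the nuclear call of H3C6 were each lost without siPANAD replicate 2, without at least 1 NC replicate and with DESeq2, and the nuclear call of H3C2 without NC replicate 1.

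H4, a protein with nearly the same sequence in all eukaryotes, is encoded by many genes of low count here. In SNU-449 cytoplasm 5 of the 7 tested H4 genes rose; 2 of the 5, H4C12 and H4C16, reached 10 counts in only 1 of the 4 NC libraries and so passed the filter through siPANAD libraries. H4C3 had 55 and 77 counts in siPANAD cytoplasm, against 11 and 29 in NC cytoplasm, a log2 fold change of 1.76 ± 0.31 (adjusted p = 1.36e-05, edgeR). H4C8 and H4C16 rose in both SNU-449 fractions, with log2 fold changes of 1.72 ± 0.57 and 1.74 ± 0.51 in the cytoplasm and 1.24 ± 0.36 and 1.47 ± 0.44 in the nucleus. H4C9 had 33 and 44 counts in siPANAD nuclei of SNU-449, against 12 and 8 in NC nuclei (log2 fold change 1.92 ± 0.38, adjusted p = 8.08e-05, edgeR), and was called in the cytoplasm too (1.07 ± 0.41). H4C12, whose annotated sequence is shared with other H4 genes throughout, was called in SNU-449 cytoplasm (1.28 ± 0.42). The cytoplasmic calls of H4C8 and H4C16 were lost without NC replicate 1 or siPANAD replicate 1, and those of H4C9 and H4C12 without NC replicate 2 or siPANAD replicate 2. The nuclear call of H4C16 was lost without NC replicate 1 or siPANAD replicate 2. DESeq2 lost the cytoplasmic calls of H4C8, H4C9 and H4C12 and the nuclear calls of H4C8 and H4C16. In HepG2 none of the 5 tested H4 genes was called in either fraction, with log2 fold changes of -0.41 to 0.49.

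Whether the effect of siPANAD differed between the lines was tested in a fit of all 16 libraries, by subtracting the log2 fold change in HepG2 cells from that in SNU-449 cells, with 49 members tested. In the cytoplasm 7 members were called, 3 with a higher and 4 with a lower value in SNU-449, where 18.2% of all 20459 genes were called, 9.17% higher and 8.98% lower. H2BC12 (-1.27 ± 0.26, adjusted p = 0.000272), H3C10 (-1.50 ± 0.30, adjusted p = 0.000243), H2AC8 (-1.33 ± 0.48) and H1-2 (-0.75 ± 0.24) had lower values in SNU-449 than in HepG2 by edgeR. H1-4 (1.67 ± 0.53) and H4C16 (2.10 ± 0.70) had higher values in SNU-449. H3C13, the remaining call, had 0 counts in both siPANAD libraries of HepG2 cytoplasm against 1 and 9 in NC, so its difference has no usable size. In the nucleus only H4C9 differed (2.37 ± 0.74, adjusted p = 0.0159, edgeR), where 20.9% of all genes were called, 11.3% higher and 9.61% lower; no member was called with DESeq2 or without HepG2 nucleus NC replicate 2, HepG2 nucleus siPANAD replicate 2 or SNU-449 nucleus siPANAD replicate 2, and 2 were without SNU-449 nucleus siPANAD replicate 1. The cytoplasmic count was 3 in place of 7 without HepG2 cytoplasm NC replicate 2 or siPANAD replicate 1, and 4 without HepG2 cytoplasm siPANAD replicate 2, SNU-449 cytoplasm NC replicate 1 or SNU-449 cytoplasm siPANAD replicate 1. H2AC25 was not called, and HepG2 held 2 counts of it in all.

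The difference between the nuclear and the cytoplasmic effect of siPANAD in a line equals the change of the nucleus to cytoplasm ratio, so a negative value means a larger rise in the cytoplasm. In SNU-449 this ratio moved for 1 of 47 members, H2AC25, with -0.72 ± 0.15 on the log2 scale (adjusted p = 0.000423, edgeR), where 20.2% of all genes were called, 9.69% higher and 10.5% lower. In HepG2 it moved for 2 of 25, H2BC12 with -1.36 ± 0.24 (adjusted p = 0.000685) and H1-2 with -0.74 ± 0.24 (adjusted p = 0.0445, both edgeR), where 9.89% of all genes were called, 4.91% higher and 4.98% lower. The HepG2 count was 1 without nucleus NC replicate 2 or any one of the 4 siPANAD libraries, and the SNU-449 count was 2 without cytoplasm siPANAD replicate 1, nucleus NC replicate 2 or nucleus siPANAD replicate 1. No member had a shift towards the nucleus that passed. H2BC12 in SNU-449 had -0.74 ± 0.30, which did not pass. Median shifts were -0.03 in SNU-449 and -0.49 in HepG2, against -0.03 and 0.00 over all genes.

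In NC libraries most histone transcripts were relatively more abundant in the cytoplasm. TMM sets the typical gene of both fractions level, so these ratios are relative to that gene and not amounts per cell. In SNU-449 36 of 47 members were called lower in the nucleus than in the cytoplasm and 1 higher, where 79.8% of all genes were called, 36.2% lower and 43.5% higher. The median log2 ratio of nucleus to cytoplasm was -1.65, against 0.22 over all genes. In HepG2 17 of 25 were called lower and 1 higher, where 77.1% of all genes were called, 37.7% lower and 39.4% higher, with a median of -1.70 against 0.04. By class, the median log2 ratio in SNU-449 was -2.27 for H1, -2.12 for H3, -2.04 for H2A, -1.26 for H2B and -0.74 for H4. In HepG2 it was -2.39 for H1, -2.18 for H2A, -1.70 for H4, -1.26 for H3 and -0.99 for H2B. Single values were as low as -3.93 ± 0.48 for H2AC12 and -3.03 ± 0.26 for H1-5 in SNU-449. H2AC6 had 49 and 54 counts in NC nuclei of SNU-449, against 139 and 122 in NC cytoplasm, a log2 ratio of -2.09 ± 0.19.

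H3C6 was the exception in both lines. It had 79 and 64 counts in NC nuclei of SNU-449, against 10 and 9 in NC cytoplasm, and 130 and 122 counts in NC nuclei of HepG2, against 23 and 64 in NC cytoplasm. The log2 ratio was 2.15 ± 0.32 in SNU-449 (adjusted p = 1.58e-07) and 1.46 ± 0.24 in HepG2 (adjusted p = 5.19e-06, both edgeR). In SNU-449 the log2 ratio was also above 0, without passing, for H4C8 (1.04 ± 0.57), H2BC21 (0.77 ± 0.35), H2BC26 (0.44 ± 0.43) and H2BC6 (0.17 ± 0.59). The 8 members tested there that are annotated for more than 1500 bases past the stem-loop were H3C6 and the first 3 of these, H4C16 (-0.12 ± 0.60), H2BC9 (-1.14 ± 0.22), H2AC11 (-2.32 ± 0.36) and H3C8 (-2.41 ± 0.55). Of these 8, 6 lay above the median of all tested members and 4 had the highest ratios among them. The limit of 1500 bases was not set in advance. H2BC18, just under it at 1479 bases, had 0.30 and 0.13 TMM CPM in NC nuclei of SNU-449, against 0.73 and 0.85 in NC cytoplasm. Whether the ratio goes with the annotated length was not tested. Of the replication-independent histones, all 11 tested were lower in the nucleus in both lines, with median log2 ratios of -1.41 in SNU-449 and -1.89 in HepG2.

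**Figure D4:**
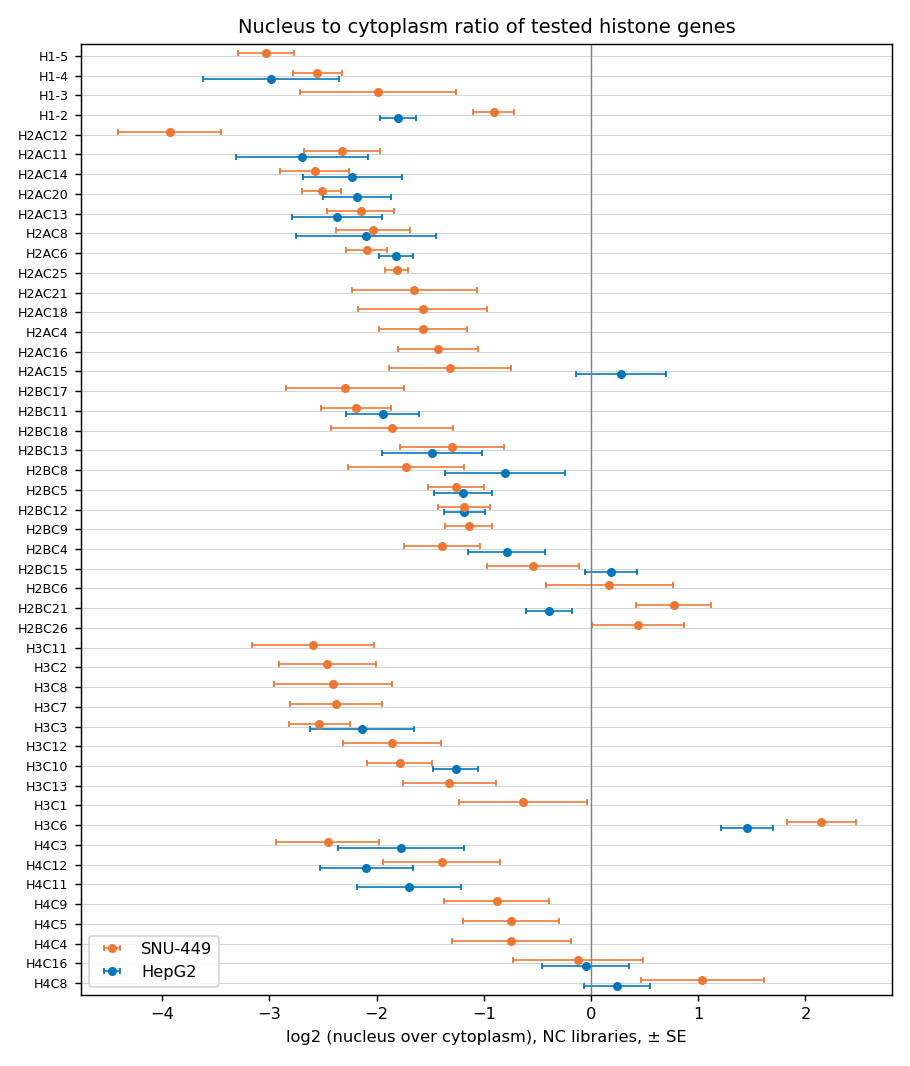
Log2 ratio of nucleus over cytoplasm (± SE) in NC libraries for the members tested in each line, SNU-449 in orange and HepG2 in blue, ordered by histone class and mean ratio. The median is -1.65 in SNU-449 and -1.70 in HepG2, and H3C6 lies at 2.15 and 1.46.

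The lines differed in which histone genes they expressed. In NC cytoplasm 27 of 49 members were higher in SNU-449 than in HepG2 and 11 lower, where 71.2% of all genes were called, 34.3% higher and 36.9% lower. In NC nuclei 16 were higher and 8 lower, where 75.5% of all genes were called, 39.1% higher and 36.5% lower. Within single lines the filter left 47 members in SNU-449 and 25 in HepG2, with 24 in both. Many of the 49 thus entered this fit through SNU-449 libraries, where they are high. The excess of higher calls is therefore set in part by the filter, and the 24 were not counted apart. H2AC25 was furthest apart, with 1619 counts over both SNU-449 NC cytoplasm libraries against 1 count in HepG2, a CPM ratio of 2055 with an exact 95% interval of 368.4 to 8.123e+04 for counting error. In NC nuclei it had 776 counts against 0, at least 247.5-fold higher in SNU-449 when HepG2 is set at the limit of 3 counts over the group; the lower end of the exact 95% interval of the CPM ratio was 200.8. H1-5 had 76 and 105 counts in SNU-449 NC cytoplasm, against 2 and 2 in HepG2 (log2 difference 5.86 ± 0.43), and H2BC9 had 89 and 71, against 2 and 2 (5.69 ± 0.45); with so few counts in HepG2 the size of these 2 differences depends on the prior count of the fit. H1-4 was higher in SNU-449 by 3.10 ± 0.28 and H2AC20 by 2.18 ± 0.20. On the other side, H2AC6 (-1.09 ± 0.15), H1-2 (-1.05 ± 0.17), H3C10 (-1.09 ± 0.22), H2BC21 (-1.24 ± 0.30) and H2BC12 (-0.75 ± 0.20) were lower in SNU-449 cytoplasm.

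Among genes that make, process and remove histone mRNA, SLBP was not called in any of the 4 siPANAD comparisons, with log2 fold changes of -0.23 to 0.08. Of the 21 genes for 3′ end processing, 3 were higher and 3 lower in SNU-449 cytoplasm and 3 and 3 in its nucleus, and 3 were higher and 9 lower in HepG2 cytoplasm and 2 and 9 in its nucleus. The 3 with the smallest adjusted p were SYMPK, SNRPD3 and SNRPB in SNU-449 cytoplasm and NCBP2, CPSF2 and SYMPK in HepG2 cytoplasm. The list for histone gene transcription and the histone locus body held 11 genes, 10 of them tested in SNU-449. There 3 were higher and 5 lower in the cytoplasm, and none higher and 5 lower in the nucleus. HepG2 had 1 higher and 3 lower in the cytoplasm, and 1 higher and 2 lower in the nucleus. The list's cytoplasmic and nuclear medians were -0.47 and -0.22 in SNU-449 and -0.26 and -0.05 in HepG2. From this list NPAT, the histone locus transcription coactivator, had log2 fold changes of 0.92 in the cytoplasm and -0.56 in the nucleus of SNU-449. In HepG2 its values were 0.56 and -0.49, and NPAT was called in all 4 comparisons. CCNE1, the cyclin E gene whose kinase activates NPAT, fell in SNU-449 (-0.85 in the cytoplasm and -0.95 in the nucleus) and in HepG2 was at 0.21 in the cytoplasm, not called, and 0.31 in the nucleus, called. Of 14 genes of histone mRNA decay, 5 were higher and 3 lower in SNU-449 cytoplasm, and 5 higher and 1 lower in HepG2 cytoplasm. In the nuclei 3 of these 14 were higher and 6 lower in SNU-449, and 1 higher and 3 lower in HepG2. Over all genes the shares called higher and lower were 19.6% and 20.1% in SNU-449 cytoplasm and 22.1% and 23.9% in its nuclei. In HepG2 they were 23.7% and 24.2% in the cytoplasm and 22% and 23.6% in the nuclei. Whether these lists differ from all genes was not tested.

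Of 23 genes of S phase and DNA replication, 4 were higher and 10 lower in SNU-449 cytoplasm and 1 higher and 15 lower in its nucleus, where 20.1% and 23.9% of all genes were called lower. The list's median log2 fold changes there were -0.15 and -0.32, against 0.04 and -0.01 over all genes. GINS2, a subunit of the replicative helicase, fell by 2.89 in the cytoplasm and by 2.11 in the nucleus on the log2 scale, and TK1 and RRM2, enzymes of nucleotide supply, fell by 0.89 and 0.85 in the nucleus. In HepG2 5 were higher and 4 lower in the cytoplasm and 4 higher and 7 lower in the nucleus, where 24.2% and 23.6% of all genes were called lower; the medians were -0.20 and -0.16. GINS2 had the smallest adjusted p of the list in both HepG2 fractions and fell in both, by 1.81 in the cytoplasm, while PCNA, the sliding clamp of replication, rose (0.47 and 0.51). Replication-independent histones rose in 2 cases and fell in 4 of 11 in SNU-449 cytoplasm, and rose in 3 and fell in 4 in HepG2 cytoplasm. In the nuclei 1 rose and 7 fell in SNU-449, with a median of -0.34, and 1 rose and 4 fell in HepG2, with a median of -0.01. Beside the shares called lower given above, 19.6% and 22.1% of all genes were called higher in SNU-449 cytoplasm and nuclei. In HepG2 these shares were 23.7% and 22%. H3-3A, a gene of the replacement histone H3.3, rose in the cytoplasm of both (0.45 in SNU-449 and 0.58 in HepG2). The part of these cell-cycle changes in the histone results was not tested.

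Called members were found with and without the octamer and TATAAA, and with each kind of annotated 3′ end. Of the members tested in a line whose promoter was matched, 7 of 17 with the octamer and 16 of 27 without it were called in at least 1 siPANAD comparison. With TATAAA 15 of 30 were called, and without it 8 of 14. Of those annotated for more than 100 bases past the stem-loop 9 of 18 were called, of those that end near it 3 of 5, of those with no annotated 3′UTR 10 of 19, and of those with a 3′UTR but no stem-loop match 3 of 3. Single comparisons called 39.7% to 47.9% of all genes. The share of all genes called in at least 1 was not counted, so the numbers by feature cannot be set against it. Members tested in both lines also had more comparisons than those tested in 1. Among head-to-head pairs, H2AC8 rose by 2.17 in HepG2 cytoplasm, where its partner H2BC8 had 0.20 ± 0.54.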

How the data were processed

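The deposited files give raw read counts per gene, 1 table for each cell line, and were used as deposited. Per the submitters' processing notes the authors used Trim Galore 0.6.4, HISAT2 2.2.1 and hg38; the counting program, annotation, strand setting and treatment of multi-mapping reads are not given in the sources used here. Libraries were directional per the labels' protocols. Samples were grouped by their titles, and no sample column was left without a sample. For each gene the first promoter window listed was used. The broken entry of 1 gene (ANK2) was left out; symbols came from a gene name table.

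Counts were analysed in R 4.3.3 with edgeR 4.0.16: filterByExpr (minimum count 10), TMM, glmQLFit (robust) and glmQLFTest, with 1 mean per group. The 8 libraries of a line were fitted together for the siPANAD, fraction and shift comparisons, and all 16 for comparisons between lines; 17895 genes were tested in SNU-449, 17499 in HepG2 and 20459 in both. The common coefficient of variation was 0.0728, 0.101 and 0.0891. TMM hides a change shared by nearly all genes. With 2 libraries a group, p-values rest on the spread between replicate libraries, which edgeR estimated over all groups of a fit. A separate check compared the raw counts of the replicates of each group, without TMM. It gave chi-square per degree of freedom of 5.13 to 33.4, all above sampling noise. The highest value was that of HepG2 cytoplasm NC, and the next was 13.7 for HepG2 nucleus NC. Scripts were tested on simulated data. Alternatives were DESeq2 1.42.0, RLE scaling, no filter, a replicate block, each fraction alone and leaving out each library.

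Named members were all those called in a siPANAD comparison plus the 10 with the highest mean level, 28 in all. The members and the gene lists were chosen with earlier results of these data known. Intervals are exact at 95%.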

Additional observations from a re-analysis of the deposited data

Results flagged for a closer look

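The siPANAD effect differed between lines or fractions, by a test of the difference itself, for the members below. The effect of siPANAD on cytoplasmic levels differed between the lines (log2 fold change in SNU-449 cells less that in HepG2 cells, edgeR) for H1-4 (1.67), H4C16 (2.10) and H3C13 (5.66), and, with the lower value in SNU-449, for H1-2 (-0.75), H2BC12 (-1.27), H2AC8 (-1.33) and H3C10 (-1.50). The value of H3C13 depends on the prior count, because both siPANAD libraries of HepG2 cytoplasm held 0. In the nucleus the effect differed for H4C9 (2.37), which had 33 and 44 counts in siPANAD and 12 and 8 in NC nuclei of SNU-449, and 8 and 5 in siPANAD and 6 and 10 in NC nuclei of HepG2.

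The effect of siPANAD also differed between the fractions of a line (nuclear minus cytoplasmic, log2) for H2AC25 in SNU-449 (-0.72) and for H2BC12 (-1.36) and H1-2 (-0.74) in HepG2. Groups of 2 libraries were too small for a test of single outlying libraries.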

How the results depend on the processing

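With all libraries kept, counts of called members were within 1.5 times of the reported count under every setting run, except as follows. With DESeq2 the count in SNU-449 cytoplasm was 7 in place of 20, the cytoplasmic difference of effects between lines 4 in place of 7, and the nuclear one 0 in place of 1. The HepG2 shift of the nucleus to cytoplasm ratio was 1 in place of 2 with DESeq2, without the filter on low counts and with the replicate block. DESeq2 gave no adjusted p for 17 of the 25 members in that comparison, and for 28 and 19 of the 49 in the differences between lines. Leaving out each library in turn, the counts ran from 11 to 21 in SNU-449 cytoplasm, 9 to 14 in SNU-449 nuclei, 8 to 11 in HepG2 cytoplasm and 3 to 4 in HepG2 nuclei; for nucleus against cytoplasm in NC 33 to 40 in SNU-449 and 14 to 19 in HepG2; for the shift 1 to 2 in both lines; for the difference of effects 3 to 7 in the cytoplasm and 0 to 2 in the nucleus; and for SNU-449 against HepG2 in NC 32 to 40 in the cytoplasm and 19 to 25 in the nucleus. Among the single siPANAD calls of named members no direction was reversed in a setting that gave an adjusted p. For the other comparisons only counts were compared and not directions.

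Of 46 single calls, DESeq2 lost 18, the missing filter 5 and the replicate block 2 (H1-5 in SNU-449 cytoplasm and H2AC12 in its nucleus); RLE scaling kept all 46, and 55 of 368 were lost when a library was left out. Calls of H2BC12, H2AC25, H3C10 and H2BC21 held in all 13 settings. Whether same-numbered libraries came from the same cultures is not known, since no sample label ties them. Their deviations correlated by -0.28 to 0.153 between groups of a line, which cannot decide it. The main fits used no pairing. The no-filter setting moved the median of all genes in nucleus against cytoplasm of NC to 0.51 in SNU-449 and 0.17 in HepG2. Depth limits calls for the many members with few counts, and the cause of the lost calls was not tested.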
